A study of Mus musculus with 6 samples.

Results

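The 10 genes described here encode the ligand, receptors, Smad proteins and co-repressors of the transforming growth factor beta (TGF-beta) pathway: *Tgfb1*, *Tgfbr1*, *Tgfbr2*, *Tgfbr3*, *Smad2*, *Smad3*, *Smad4*, *Smad7*, *Ski* and *Skil*. They were chosen by symbol from pathway knowledge, with earlier results of these data known. All 10 were found among the 35602 genes of the count table and the 34714 genes of the single-library tables. The cells were CD4+ T cells from mouse spleen, stimulated with antibodies to CD3 and CD28, and the question was how MAPK13-IN-1, an inhibitor of the kinase encoded by *Mapk13*, changed their RNA relative to the solvent DMSO. Each group had 3 libraries. In replicates 2 and 3, which are labelled wild type (WT), 17.1 µM inhibitor, or DMSO alone, was added after day 1 of culture according to the sample labels, whereas the series description has the inhibitor or DMSO present during 72 h of stimulation. The labels of the replicate 1 pair give the treatment without a dose, time of addition or genotype. The study's methods name C57BL/6J and BALB/c mice without tying a strain to these libraries, and age and sex were not given in the sources used here. The methods have the cells taken from spleen with a CD4 T cell isolation kit, a step meant to leave other cells behind. The groups differ in a compound and not in a gene, so effects of the compound on other targets cannot be told apart from those on its named target.

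Replicates 2 and 3 were deposited as counts per gene, with totals of 26874805 and 28487403 in the DMSO libraries and 33854760 and 32617702 in the MAPK13-IN-1 libraries. The replicate 1 pair was prepared with another kit and deposited as normalized values with no named unit. They were not whole and were taken to be FPKM, which divides fragments by the size of the library and the length of the gene. Its depth is unknown, and it is given as values and log2 ratios of FPKM + 1 with no test. Counts are given below as CPM, which are counts relative to the library total after TMM scaling. Nothing in the labels says that replicates came from separate animals or cultures, so p-values measure only the spread between these libraries, which may be technical. Replicates differed by more than sampling noise, with a mean chi-square per gene of 3.08 in DMSO and 9.60 with MAPK13-IN-1. The medians were lower than the means, at 1.02 in DMSO and 2.16 with MAPK13-IN-1.

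TGF-beta is secreted in a latent form and, once released, binds a type II receptor kinase that recruits and phosphorylates a type I receptor kinase. The type I receptor phosphorylates Smad2 and Smad3, which join Smad4 and enter the nucleus, while Smad7 blocks the receptor and the Ski and SnoN proteins restrain Smad-driven transcription. In CD4+ T cells the pathway is known for limiting proliferation and effector differentiation and for its part in forming regulatory and Th17 cells.

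Of the 10 genes, all of which passed the filter on low counts, 5 were higher with MAPK13-IN-1 (*Tgfbr2*, *Smad2*, *Smad4*, *Smad7* and *Skil*), 3 were lower (*Tgfb1*, *Tgfbr3* and *Ski*) and 2 did not pass the threshold (*Tgfbr1* and *Smad3*) at an adjusted p under 0.05 (edgeR quasi-likelihood test, Benjamini-Hochberg). Across all 16269 genes tested, 63.8% passed in either direction, 31.5% higher and 32.3% lower, so a gene past the threshold was common in this comparison. The median log2 fold change of the 10 genes was 0.23, against 0.01 over all genes tested. Scaling by library totals alone moved the median of all genes from 0.01 to 0.14 and that of the 10 genes to 0.36, and *Smad3* then passed the threshold as well. With an absolute log2 fold change of at least 1 also required, 23.4% of all genes passed, and of the 10 genes 1 was higher (*Smad7*) and 1 lower (*Tgfb1*).

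**Figure D1:**
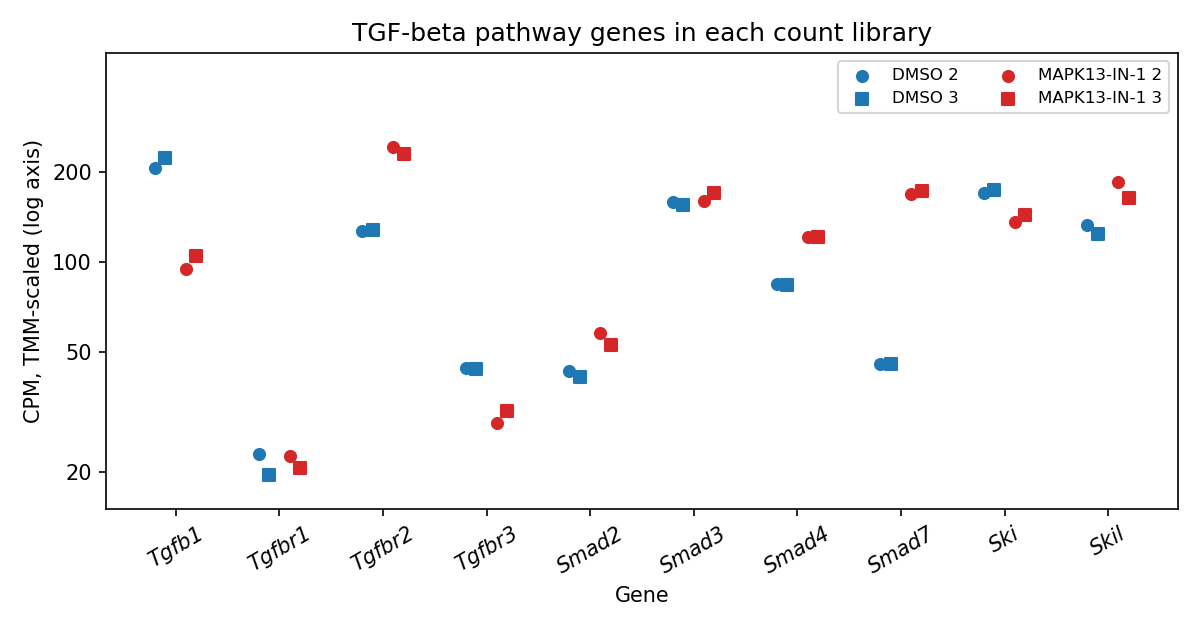
CPM (TMM-scaled, log axis) of the 10 TGF-beta pathway genes in each count library, with DMSO in blue and MAPK13-IN-1 in red, circles for replicate 2 and squares for replicate 3. The groups overlap for *Tgfbr1* and lie apart for the other genes, most widely for *Smad7*, at 45.8 CPM in both DMSO libraries and at 169 and 173 CPM with MAPK13-IN-1. How many of all genes lie apart was not counted, but 63.8% of all genes tested passed the threshold. *Smad3* lies apart and did not pass it.

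*Tgfb1* encodes the TGF-beta ligand made by T cells themselves. It was at 206 and 223 CPM in the DMSO libraries and at 94.8 and 105 CPM in the MAPK13-IN-1 libraries. Both treated libraries were below both controls, by a factor of 2.14 on average. The log2 fold change was -1.10 (SE 0.0697), with an adjusted p of 5.28e-07 by edgeR and the Benjamini-Hochberg method. It was at 91.9 FPKM in DMSO replicate 1 and 72.8 FPKM in MAPK13-IN-1 replicate 1, a log2 ratio of -0.33, and it was the only one of the 10 genes lower with MAPK13-IN-1 in that pair. Of all 34714 genes there, 13671 were higher and 8265 lower. Over genes of at least 1 FPKM in both libraries, the median log2 ratio was 0.34 for the 10 genes and 0.05 for all 10448 such genes. Most markers of CD4 T cells were also lower in the treated count libraries, though not all: 9 of 12 passed as lower and 0 as higher, beside 32.3% and 31.5% of all genes tested, and their summed level was 2280 and 2320 CPM of the library total with DMSO and 1500 and 1620 with MAPK13-IN-1. *Cd4* itself was at 275 and 276 CPM (TMM-scaled) with DMSO and 267 and 283 CPM with MAPK13-IN-1, a log2 fold change of 0.00, and *Zap70* and *Cd247*, at 0.11 and 0.15, did not pass either. The marker with the highest mean over the 4 libraries was *Cd5*, at 408 and 419 CPM of the library total with DMSO and 161 and 208 with MAPK13-IN-1. In both MAPK13-IN-1 libraries other markers, *Cd4* and *Zap70* among them, had more counts than *Cd5*. No marker of the list was at 0. Their part in the result was not tested, and in these bulk samples fewer cells of a type and less RNA of single genes per cell cannot be told apart.

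*Tgfbr2* encodes the type II receptor kinase that binds the ligand. It was at 127 and 128 CPM with DMSO and at 243 and 230 CPM with MAPK13-IN-1. Both treated libraries were above both controls, 1.85-fold on average. The log2 fold change was 0.89 (SE 0.0577), with an adjusted p of 6.10e-07 by edgeR and the Benjamini-Hochberg method. *Tgfbr1*, the type I receptor kinase that passes the signal to the Smads, was at 22.8 and 19.5 CPM with DMSO and at 22.5 and 20.6 CPM with MAPK13-IN-1. Its groups overlapped, and the log2 fold change of 0.03 had a 95% confidence interval from -0.21 to 0.27, with an adjusted p of 0.827 by edgeR and the Benjamini-Hochberg method. Its sign was not stable: without DMSO replicate 3 the log2 fold change was -0.09, and without MAPK13-IN-1 replicate 2 it was -0.04. *Tgfbr3* encodes betaglycan, a co-receptor that presents ligand to the type II receptor. It was at 44.5 and 44.0 CPM with DMSO and at 29.0 and 31.8 CPM with MAPK13-IN-1. The treated libraries were both lower, with a log2 fold change of -0.54 (SE 0.0829) and an adjusted p of 0.000228 by edgeR and the Benjamini-Hochberg method. Of its annotated exon sequence, 4.54% (297 bp) is shared with the model *Gm43422* on the same strand. Counts from that stretch are uncertain, and their number was not measured.

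*Tgfbr2* was at 18.7 FPKM in DMSO replicate 1 and 22.4 FPKM in MAPK13-IN-1 replicate 1, a log2 ratio of 0.25. *Tgfbr1* was at 6.45 and 8.43 FPKM, a log2 ratio of 0.34. *Tgfbr3* was at 10.8 and 13.9 FPKM, a log2 ratio of 0.34. The direction for *Tgfbr3* was thus opposite to that in the count libraries, and whether the pairs differed was not tested.

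*Smad2* and *Smad3* encode the Smads that the type I receptor phosphorylates. *Smad2* was at 43.2 and 41.4 CPM with DMSO and at 58.1 and 53.1 CPM with MAPK13-IN-1. The groups lay apart, with a log2 fold change of 0.39 (SE 0.0779) and an adjusted p of 0.00124 by edgeR and the Benjamini-Hochberg method. *Smad3* was at 159 and 155 CPM with DMSO and at 160 and 170 CPM with MAPK13-IN-1. Both treated libraries were above both controls, yet the difference did not pass the threshold, with a log2 fold change of 0.07, a 95% confidence interval from -0.06 to 0.20 and an adjusted p of 0.301 by edgeR and the Benjamini-Hochberg method. Its adjusted p ranged from 0.0122 to 0.761 over 12 alternatives, among them 0.0396 without MAPK13-IN-1 replicate 2, where the log2 fold change was 0.12. *Smad4*, the partner that both share, was at 84.9 and 83.7 CPM with DMSO and at 121 CPM in both MAPK13-IN-1 libraries. It was 1.44-fold higher, with a log2 fold change of 0.53 (SE 0.0595) and an adjusted p of 2.71e-05 by edgeR and the Benjamini-Hochberg method.

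*Smad7*, the inhibitory Smad whose transcription TGF-beta signaling itself induces, had the largest difference of the 10 genes in the count libraries. It was at 45.8 CPM in both DMSO libraries and at 169 and 173 CPM with MAPK13-IN-1. It was 3.73-fold higher, with a log2 fold change of 1.90 (SE 0.0619) and an adjusted p of 1.28e-08 by edgeR and the Benjamini-Hochberg method. Among all genes tested, 91.7% had a smaller absolute log2 fold change. It was at 4.74 FPKM in DMSO replicate 1 and 8.95 FPKM in MAPK13-IN-1 replicate 1, a log2 ratio of 0.79. *Skil* had a larger log2 ratio in that pair, at 0.93.

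The other Smads were higher with MAPK13-IN-1 in the replicate 1 pair too. *Smad2* was at 6.19 FPKM there, against 5.55 FPKM for DMSO. *Smad3* was at 18.1 against 16.5 FPKM, and *Smad4* at 12.6 against 8.77 FPKM. Their log2 ratios were 0.13, 0.12 and 0.47, in that order.

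The co-repressors *Ski* and *Skil* (which encodes SnoN) bind Smad complexes on DNA and moved in opposite directions in the count libraries. *Ski* was at 171 and 174 CPM with DMSO and at 136 and 144 CPM with MAPK13-IN-1. Both treated libraries were lower, with a log2 fold change of -0.30 (SE 0.0586) and an adjusted p of 0.00104 by edgeR and the Benjamini-Hochberg method. *Skil* was at 133 and 124 CPM with DMSO and at 186 and 164 CPM with MAPK13-IN-1. Both treated libraries were higher, with a log2 fold change of 0.45 (SE 0.0713) and an adjusted p of 0.000305 by edgeR and the Benjamini-Hochberg method. Both were higher with MAPK13-IN-1 in the replicate 1 pair, *Ski* at 36.0 against 23.8 FPKM and *Skil* at 25.3 against 12.8 FPKM. For *Ski* this was opposite to the count libraries, and the difference between the pairs was not tested.

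**Figure D2:**
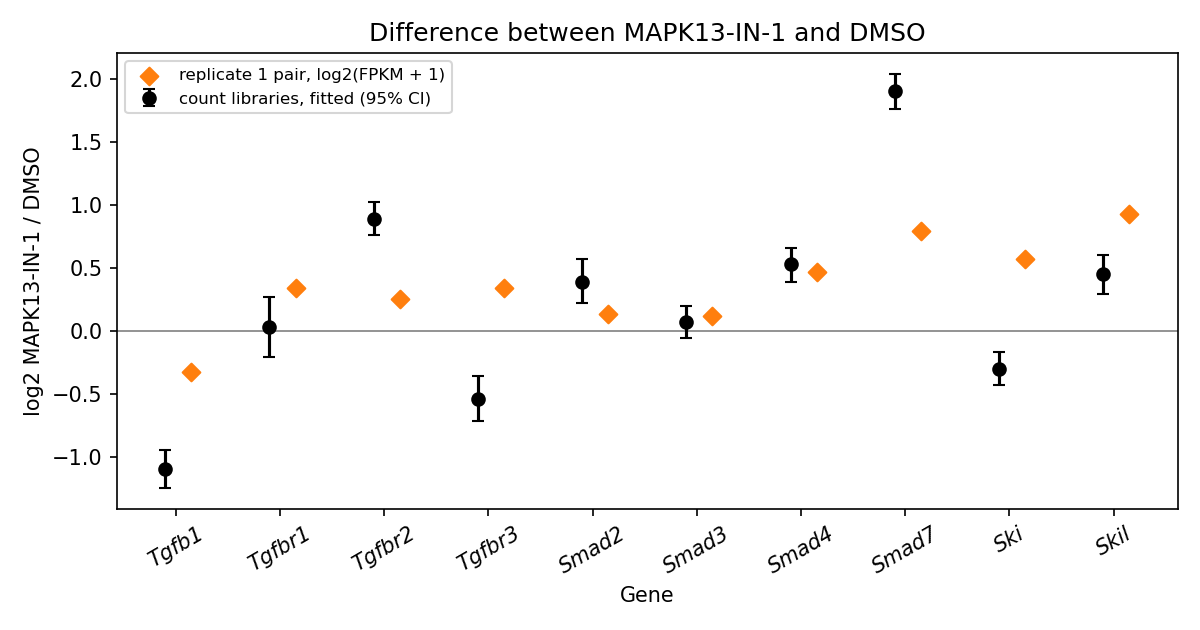
Log2 ratio of MAPK13-IN-1 to DMSO for the 10 genes, as fitted from the count libraries (black, bars are 95% confidence intervals) and in the replicate 1 pair (orange, on the scale of log2(FPKM + 1), with no error because each group has 1 library). *Tgfbr3* and *Ski* lie below 0 in the count libraries, at -0.54 and -0.30, and above 0 in the replicate 1 pair, at 0.34 and 0.57.

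Compared per length of annotated exons, the order of the levels differed between the groups. With DMSO, *Tgfb1* had the highest level, at 42.5 ± 2.38 CPM per kb (SD, n = 2), followed by *Ski* (31.0), *Smad3* (28.3), *Smad4* (22.7), *Tgfbr2* (15.6), *Skil* (13.3), *Smad7* (10.1), *Tgfbr3* (6.76), *Smad2* (4.82) and *Tgfbr1* (3.24), with no overlap between neighbours in the 2 libraries. With MAPK13-IN-1, *Smad7* was highest at 37.8 ± 0.652 CPM per kb (SD, n = 2), followed by *Smad4* (32.7), *Smad3* (29.8), *Tgfbr2* (28.9), *Ski* (25.1), *Tgfb1* (19.8), *Skil* (18.1), *Smad2* (6.33), *Tgfbr3* (4.65) and *Tgfbr1* (3.30). Here *Smad3* overlapped *Tgfbr2*, and *Tgfb1* overlapped *Skil*. *Smad7* thus went from rank 7 to rank 1 and *Tgfb1* from rank 1 to rank 6. In the replicate 1 pair, *Tgfb1* had the highest FPKM of the 10 genes in both libraries, and *Smad7* ranked 10 with DMSO and 8 with MAPK13-IN-1.

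*Tgfb1* lies on chromosome 7 (25687002 to 25705077, plus strand) and *Tgfbr2* on chromosome 9 (116084293 to 116175360, minus strand) in GENCODE M21 on GRCm38. The 250 bases before their starts are shown because these genes moved in opposite directions, as the ligand and its receptor. They come from RefSeq (GRCm38.p6), in which 5 of the 10 genes were matched. Capitals mark the Smad box CAGAC, searched on both strands, which 42.2% of the 32851 promoter windows of this length hold. It had 1 match before *Tgfbr2* and 0 before *Tgfb1*. GTCTAGAC (in 0.167% of the windows), CTTTGAT (3.21%) and CTTTGTT (5.03%) had 0 matches before either gene. Of the other genes found in RefSeq, *Ski* and *Smad3* had 0 matches to CAGAC, and *Tgfbr1* had 0 and 1 before its annotated starts. A match is a description of these letters and not of a binding site.
Tgfb1 promoter, chr7:25686752-25687001, plus strand: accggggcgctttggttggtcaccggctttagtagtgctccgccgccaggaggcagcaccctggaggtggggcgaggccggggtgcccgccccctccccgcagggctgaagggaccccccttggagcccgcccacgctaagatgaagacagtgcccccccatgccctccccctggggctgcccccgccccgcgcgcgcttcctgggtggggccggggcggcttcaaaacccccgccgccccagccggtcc
Tgfbr2 promoter, chr9:116175364-116175613, minus strand: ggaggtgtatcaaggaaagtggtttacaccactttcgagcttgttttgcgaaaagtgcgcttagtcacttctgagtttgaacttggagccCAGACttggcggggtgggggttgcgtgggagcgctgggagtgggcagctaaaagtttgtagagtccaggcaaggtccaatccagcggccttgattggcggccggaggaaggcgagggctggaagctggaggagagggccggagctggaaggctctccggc

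Of 10 other ligands and ligand-binding proteins, 6 were tested, 2 were higher and 2 lower, with a median log2 fold change of 0.14, beside 31.5% higher and 32.3% lower over all genes tested. *Inhba*, which encodes the activin A subunit, was at 852 and 999 counts with DMSO and 90 and 102 counts with MAPK13-IN-1, and its log2 fold change of -3.65 had an adjusted p of 1.87e-08 by edgeR and the Benjamini-Hochberg method. The replicate 1 pair went the other way, with 7.68 FPKM under MAPK13-IN-1 against 1.37 FPKM under DMSO. *Tgfb2*, another TGF-beta ligand, was at 20 and 17 counts with DMSO and 191 and 125 counts with MAPK13-IN-1, with a log2 fold change of 2.69, and was also higher in the replicate 1 pair, at 6.76 against 0.105 FPKM. *Inha*, which encodes the inhibin alpha subunit, had a log2 fold change of -1.01 and was higher in the replicate 1 pair, at 2.58 against 0.795 FPKM. *Tgfb3* had a log2 fold change of 0.53 (adjusted p 0.0187, edgeR, Benjamini-Hochberg method), which did not pass without DMSO replicate 2 (0.48, adjusted p 0.0642) or without MAPK13-IN-1 replicate 3 (0.31, adjusted p 0.101). Under the filter, *Mstn* had 0 counts in all 4 libraries, and *Inhbb*, *Nodal* and *Fst* had at most 9 in any.

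Of 11 genes for the storage and release of latent TGF-beta, 9 were tested, 3 were higher and 4 lower, with a median of 0.01, beside 31.5% higher and 32.3% lower of all genes tested. *Furin*, the protease that cleaves the TGF-beta precursor, was at 15633 and 17519 counts with DMSO and 8435 and 9051 counts with MAPK13-IN-1, a log2 fold change of -1.31. It was higher with the inhibitor in the replicate 1 pair, at 66.8 against 24.3 FPKM. *Ltbp3* and *Ltbp4*, which encode latent TGF-beta binding proteins, had log2 fold changes of -1.0 and -1.53, and *Nrros*, whose product tethers latent TGF-beta on cells, had one of 0.74. *Ltbp3* was higher in the replicate 1 pair, at 2.40 against 0.729 FPKM, while *Ltbp4* and *Nrros* lay in the same direction there as in the counts. *Ltbp4* was low in that pair, at 0.214 against 0.328 FPKM. *Itgb6* had 0 counts in all 4 libraries and *Ltbp1* at most 10 in any.

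Of 13 related receptors, 11 were tested, 8 were higher and 0 lower, with a median log2 fold change of 0.55, beside 31.5% higher, 32.3% lower and a median of 0.01 over all genes tested. Without DMSO replicate 3, 5 were higher. *Acvr1b*, an activin type I receptor, was at 1245 and 1313 counts with DMSO and 2569 and 2411 counts with MAPK13-IN-1, a log2 fold change of 0.57, and was lower with the inhibitor in the replicate 1 pair, at 3.65 against 4.29 FPKM. *Cd109*, a TGF-beta co-receptor, had one of 2.04, *Acvrl1*, the type I receptor ALK1, one of 1.13, and *Bambi*, a decoy receptor, one of 1.16, and these 3 were also higher in that pair. Their levels there were low, at 1.55 against 0.0489 FPKM for *Cd109* and 0.838 against 0.103 FPKM for *Acvrl1*. *Bambi* was at 0.290 against 0.219 FPKM. *Bmpr1b* had 0 counts in all 4 libraries and *Acvr1c* at most 11 in any. Among 4 Smads of the BMP branch, 2 were higher and 0 lower. *Smad5*, a receptor-activated Smad of that branch, was at 889 and 933 counts with DMSO and 2876 and 2431 counts with MAPK13-IN-1, a log2 fold change of 1.15, and was also higher in the replicate 1 pair. *Smad9* was at 2 and 0 counts with DMSO and 21 and 27 counts with MAPK13-IN-1, too low in the controls for a fold.

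Of 16 genes for the turnover of receptors and Smads, 15 were tested, 3 were higher and 3 lower, with a median of 0.06, beside 31.5% higher and 32.3% lower of all genes tested. The number higher was 7 with scaling by library totals and 5 without either MAPK13-IN-1 replicate. *Smurf1* and *Smurf2*, ubiquitin ligases that target Smads and the receptor, had log2 fold changes of 0.77 and 0.44. *Fkbp1a*, whose product FKBP12 binds the type I receptor, had one of -0.48, and *Usp4*, a deubiquitinase, one of -0.55, with 30.1 against 27.6 FPKM in the replicate 1 pair, where the other 3 lay in the same direction as in the counts. *Dab2* had at most 6 counts in any library. Of 17 DNA-binding partners and corepressors of Smads, 6 were higher and 6 lower, with a median of -0.08, beside the same shares of all genes. *Tgif1*, a Smad corepressor, was at 845 and 870 counts with DMSO and 3101 and 2600 counts with MAPK13-IN-1, a log2 fold change of 1.34. *E2f4*, a partner of Smad3 in repression, had one of -1.18, *Zeb1* one of 0.95 and *Runx2* one of 0.65, and all 4 lay in the same direction in the replicate 1 pair.

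Of 15 genes that TGF-beta is known to induce, a list that also holds *Smad7* and *Skil*, 14 were tested, 6 were higher and 6 lower, with a median of -0.02, while 31.5% of all genes tested were higher and 32.3% lower. *Foxp3*, the regulatory T cell factor, was at 1507 and 1648 counts with DMSO and 719 and 806 counts with MAPK13-IN-1, a log2 fold change of -1.44. *Ccr8*, a chemokine receptor, had one of -2.93, and the cytokine gene *Il9* one of -2.79. *Ccn2* had 0 counts in all 4 libraries. In the replicate 1 pair, 12 of the 15 were higher with MAPK13-IN-1, where 13671 of all 34714 genes were higher and 8265 lower. Over genes of at least 1 FPKM in both libraries the median log2 ratio was 0.62 for 10 genes of the list and 0.05 for all 10448 such genes. *Il9* was higher there, at 131 against 65.0 FPKM, as was *Foxp3*, at 14.6 against 13.6 FPKM, while *Ccr8* was lower, at 43.2 against 58.7 FPKM. Of 10 genes that TGF-beta is known to repress, 0 were higher and 7 lower, with a median of -1.02, beside the same shares of all genes and their median of 0.01. *Il4* was at 240 and 229 counts with DMSO and 11 and 12 counts with MAPK13-IN-1, a log2 fold change of -4.72. *Il2*, *Gata3* and *Myc* had log2 fold changes of -1.80, -1.09 and -1.0. The replicate 1 pair had 8 of these 10 higher with MAPK13-IN-1. The median log2 ratio was 0.96 over the 8 genes of the list at 1 FPKM or more in both libraries. These are not the same 8, since they hold *Il4* and *Gata3*, which were lower. Among those higher were *Il2*, at 71.1 against 6.04 FPKM, and *Myc*, at 73.7 against 55.0 FPKM. *Il4*, at 13.1 against 28.9 FPKM, and *Gata3*, at 33.8 against 48.1 FPKM, were lower in that pair too.

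Of 11 genes of the branch that runs through TAK1 and p38 kinases rather than Smads, 5 were higher and 4 lower, with a median of 0.11, where 31.5% of all genes tested were higher and 32.3% lower. *Mapk13*, the kinase the compound is named for, was at 79 and 74 counts with DMSO and 21 and 51 counts with MAPK13-IN-1, a log2 fold change of -1.47, and in the replicate 1 pair at 0.191 and 3.28 FPKM, the opposite direction. The treated libraries differed between themselves, and the log2 fold change was -2.29 without MAPK13-IN-1 replicate 3 and -0.94 without MAPK13-IN-1 replicate 2. *Map2k6*, which encodes an activator of p38 kinases, was at 607 and 632 counts with DMSO and 3859 and 3361 counts with MAPK13-IN-1, a log2 fold change of 2.15, and was lower with the inhibitor in the replicate 1 pair, at 1.25 against 2.90 FPKM. *Map2k3*, another such activator, had one of 0.65, *Tab2*, a TAK1 adaptor, one of 0.52, and *Mapk11*, a p38 kinase, one of -1.30, and these 3 lay in the same direction in that pair.

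**Figure D3:**
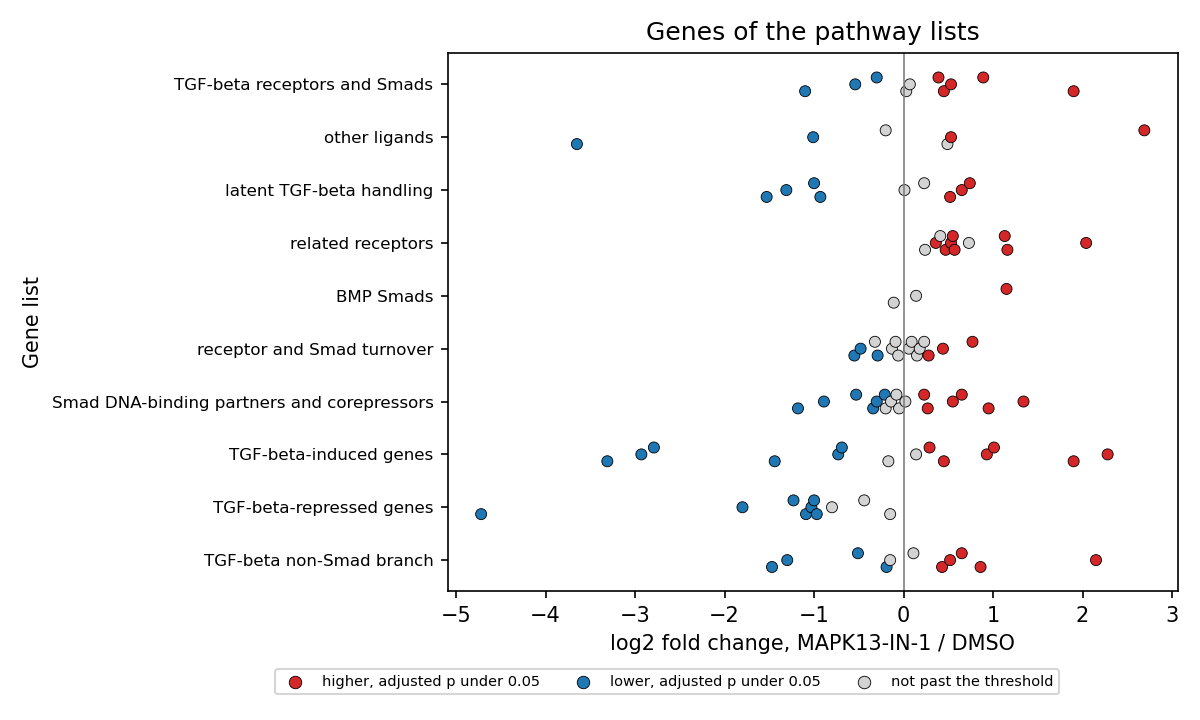
Log2 fold change (MAPK13-IN-1 over DMSO, count libraries) of each tested gene of the pathway lists, 1 point per gene, red for higher and blue for lower at an adjusted p under 0.05 and grey for genes that did not pass; *Smad9* is left out because its DMSO counts were 2 and 0. All called related receptors lie above 0 and all called TGF-beta-repressed genes below 0, and vertical offsets within a list carry no value.

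Markers of other cells were present beside those of CD4 T cells in the count libraries. Of 11 B cell markers listed in the file and tested, 8 were higher and 2 lower, beside 31.5% and 32.3% of all genes tested, and their summed level was 1120 and 1100 CPM of the library total with DMSO and 1420 and 1430 with MAPK13-IN-1. The marker with the highest mean over the 4 libraries was *Pax5*. It was at 171 and 161 CPM of the library total with DMSO and 276 and 281 with MAPK13-IN-1. In the replicate 1 pair the B cell markers summed to 53.7 and 37.2 FPKM, beside 1520 and 1510 FPKM for CD4 T cell markers. The part of B cell RNA in the values of the 10 genes was not tested. CD8 T cell markers were lower for 2 of 2 genes, and their summed level was 11.2 and 10.4 CPM with DMSO and 5.76 and 8.16 with MAPK13-IN-1. Both were higher with the inhibitor in the replicate 1 pair, where they summed to 8.39 against 3.49 FPKM.

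Markers of other lineages had low summed levels that were higher in the treated count libraries, and each list is given with the marker of the highest mean over the 4 libraries. Of all genes tested, 31.5% were higher. Of 13 macrophage and monocyte markers 8 were tested and 6 passed as higher, and they summed to 13.3 and 11.9 CPM with DMSO and 45.8 and 37.6 with MAPK13-IN-1, led by *Cd68*, with *Vsig4* at 0. Of 6 dendritic cell markers 4 were tested and all 4 passed as higher, and they summed to 18.4 and 18.6 against 61.9 and 51.1 CPM, led by *Zbtb46*. Of 8 erythroid markers 7 were tested and 6 passed as higher, and they summed to 7.52 and 7.20 against 94.4 and 67.1 CPM, led by *Hbb-bs*. Of 8 platelet and megakaryocyte markers, of interest because platelets store TGF-beta, 4 were tested and 3 passed as higher, led by *Itga2b*, and they summed to 19.0 and 17.1 against 27.7 and 24.2 CPM, with *Ppbp* and *Treml1* at 0. Fibroblast and endothelial markers, of which 3 of 8 were tested, passed as higher for 1, *Pecam1*, which other cells also express. It made up most of their sum, at 38.2 and 35.2 of 39.9 and 37.5 CPM with DMSO and 79.1 and 73.0 of 82.4 and 76.7 CPM with MAPK13-IN-1, with *Col3a1*, *Pdgfra* and *Dcn* at 0. Neutrophil markers (led by *Mpo*, with *S100a9* at 0) and natural killer cell markers (led by *Klrb1c*, with *Klra8* at 0) each summed to under 1 CPM in every count library. Of 7 neutrophil markers 1, *Mpo*, was tested and passed as higher, at 2 counts in both DMSO libraries. In the replicate 1 pair the sums with DMSO and with MAPK13-IN-1 were 3.10 and 10.3 FPKM for macrophage and monocyte markers, 3.36 and 14.6 for dendritic cell markers and 0.931 and 1.94 for erythroid markers. They were 2.38 and 3.61 FPKM for platelet and megakaryocyte markers, and 7.91 and 6.60 for fibroblast and endothelial markers. Neutrophil markers summed to 0.737 and 0.455 FPKM, and natural killer cell markers to 0.0909 and 0.173 FPKM. The part of these cells in the values of the 10 genes was not tested.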

How the data were processed

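For replicates 2 and 3 the authors deposited whole-number counts per gene symbol. The submitters' processing notes name fastp 0.21.0, HISAT2 2.1.0, StringTie 2.1.5, DESeq2 1.30.1 and the build mm10 without their roles, so the counts may be estimates derived from coverage, and whether strand was used is not given in the sources used here. For the replicate 1 pair the authors deposited values read here as FPKM, with FastQC, HISAT2 and the builds GRCm38 and mm10 named in the notes. No column of the count table was left unused.

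Counts were tested in R 4.3.3 with edgeR 4.0.16 (filterByExpr with a minimum count of 10 and a minimum total of 15, TMM scaling, quasi-likelihood test without covariates, 2 libraries against 2) with Benjamini-Hochberg adjustment over all 16269 genes tested. The replicate 1 pair, made with another kit and normalized separately, entered no test; its log2 ratios used a pseudocount of 1 and understate changes of low values. CPM are relative to TMM-scaled totals, except marker sums and the leading marker of each list, which use library totals. A group at or under 3 counts in every library was given no fold. A count of 3 is worth 0.0886 to 0.112 CPM, which covers counting error only. Exon lengths came from GENCODE M21, where all 195 listed symbols were matched, and promoters from RefSeq. The script was tested on simulated data.

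The members and lists were chosen with earlier results of these data known. Named were every member, *Mapk13*, up to 4 genes of each pathway list with the smallest p among those passing, the pathway list genes under the filter, and the marker with the highest mean count share over the 4 libraries and the markers at 0 of each marker list. Alternatives were RLE, upper-quartile and library-total scaling, other filters, a replicate block, DESeq2 1.42.0, limma 3.58.1 (voom), each library left out, stricter thresholds, and for the replicate 1 pair a pseudocount of 0.1 and a rescaling.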

Additional observations from a re-analysis of the deposited data

Results flagged for a closer look

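In the count libraries *Tgfbr3* and *Ski* were lower with MAPK13-IN-1 in both treated libraries than in both controls, whereas in the replicate 1 pair they were higher, with log2 ratios of 0.34 for *Tgfbr3* and 0.57 for *Ski*. The difference between the count libraries and that pair was not tested, since the pair has 1 library per group, another kit and another unit.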

How the results depend on the processing

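Over 12 alternatives for each of the 10 genes, 115 of 120 log2 fold changes kept the direction and the side of the threshold. The 8 genes called higher or lower kept both in every one of these fits. *Smad3* passed as higher with upper-quartile factors (0.15, adjusted p 0.0395, edgeR, Benjamini-Hochberg method), with library totals alone (0.20, adjusted p 0.0122) and without MAPK13-IN-1 replicate 2 (0.12, adjusted p 0.0396). *Tgfbr1*, which passed in no fit, ranged from -0.09 to 0.14 with 1 library left out, with the sign changed without DMSO replicate 3 (-0.09) and without MAPK13-IN-1 replicate 2 (-0.04). The median log2 fold change of the 10 genes was 0.31 with upper-quartile factors and 0.36 with library totals alone, which also moved the median of all genes up. With an absolute log2 fold change of at least 1 also required, 3799 genes passed, and 1 of the 10 genes was higher and 1 lower, by construction of that limit. Left-out libraries leave 1 library in a group, which is then assumed to vary like the other group.

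Replicates 2 and 3 share only a number between the groups. Same-numbered libraries did not deviate together (correlation across 16269 genes of -0.00641), and the replicate block gave 10645 genes called, with 5 of the 10 genes higher, 3 lower and a median of 0.23. Of 407 values for 34 other named genes, 405 kept direction and call and 2, both of *Tgfb3*, no longer passed. Of 216 values for 18 counts of higher or lower genes in the pathway lists, 207 were labelled the same and 9 moved. The label allowed a limited change of the count, so the 207 were not all identical to the main result. The replicate 1 pair has no depth or replicate to set an error, and with 2 libraries per group the spread of each gene rests largely on that of all genes.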
